A study of Mus musculus with 8 samples.

Results

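Mouse genes whose bodies span at least 500 kb were examined for RNA:DNA hybrid peaks. They were all the protein-coding genes of the GENCODE M21 annotation of mm10 that reach this length, 230 of 21951, and together they covered 191.703 Mb, or 7.24% of the sequenced genome. The counted regions were the peaks of the 4 DRIP-seq lists, all scores included, whose midpoint lay in such a body and more than 1 kb from any annotated transcript start. There were 12901 of them among the 344010 peaks of the series, and the 4009 protein-coding genes of 50 to 200 kb served as the comparison. Neither the length of a gene nor the position of a start uses a measured value.

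DRIP-seq (DNA-RNA immunoprecipitation followed by sequencing) pulls down restriction-digested genomic DNA with S9.6, an antibody to RNA:DNA hybrids, the core of R-loops. The cells were mouse embryonic fibroblasts (MEFs) of 1 line, Rtel1F/F;WT RNH1-GFP, so all groups had both *Rtel1* alleles flanked by loxP sites and carried a doxycycline-inducible fusion of GFP to wild-type RNaseH1, which removes the RNA of hybrids. GFP mock and GFP DOX cells had received an adenovirus that expresses GFP. Cre mock and Cre DOX cells had received an adenovirus that expresses Cre and GFP, which deletes *Rtel1*, the gene of a helicase that unwinds telomere loops and G-quadruplexes (G4s). After 48 h, the DOX cells were given 2 µg/ml doxycycline for 48 h, and the mock cells were not. For each condition 3 immunoprecipitations were pooled into 1 library, so there are no replicates, no difference between conditions can be tested, and a condition cannot be told apart from its library. Sets of 4 values are given for GFP mock first, then GFP DOX, then Cre mock and last Cre DOX, which is called list order. Intervals are exact at 95% confidence and cover counting error only. The lists hold no RNA level and no deletion check. *Rtel1* itself overlapped 0, 0, 2 and 1 peaks in the 4 lists. Of the fibroblast genes *Col1a1* overlapped 9, 7, 6 and 6, *Pdgfrb* 6, 3, 5 and 3, the others at most 2 and *Dcn* none. Of the neuronal genes *Rbfox3* overlapped 33, 12, 25 and 9, *Syt1* 2, 4, 5 and 5, and *Snap25* and *Tubb3* at most 1. Peaks thus did not mark the cell type.

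Very long genes are the class in which common fragile sites lie, the loci that break or fail to condense when replication is slowed. A polymerase can need most of a cell cycle to cross such a gene, few origins fire within it, and it is copied late, so transcription and replication can meet there and R-loops have been placed at these encounters. The class includes many genes of cell adhesion, synaptic and signalling proteins of neurons, and much of its length is intron.

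The median body was 730.276 kb long. *Edil3*, *Dock1* and *Car10*, at 501.752, 502.986 and 503.722 kb, lay just inside the limit, and *Pde1c*, *Dnm3* and *Cacna1e*, at 499.3, 495.582 and 493.771 kb, just outside it. There were 59 genes of at least 1 Mb and 12 genes on the X chromosome. The 230 models formed 227 separate loci. In 7 of them 3 or more other protein-coding genes lie inside the body. The longest, *Gm20388* (chr8:119910841-124345722, 4434.88 kb), and the second longest, *Fgfr2* (chr7:130162451-133123350, 2960.9 kb), are of this kind, whereas the third, the receptor phosphatase gene *Ptprd* (chr4:75941238-78211961, 2270.72 kb), is 1 ordinary gene. Peak densities and the main ratios of unmasked peaks are given with and without such models.

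Sequences from some of the strongest regions, not all of them, are shown first, because they differ in kind. All are intronic by the annotation and read from the plus strand of GRCm38.p6, 5′ to 3′.

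The strongest region of every list lay in *Il1rapl1*, a synaptic adhesion gene on the X chromosome, and a region of *Cntnap5c*, which encodes a contactin-associated protein, was among the 5 strongest of each list. A region of *Hdac9*, a histone deacetylase gene, was the fifth in both GFP lists. Capitals mark 2 stretches that the peaks share with one another on the same or the opposite strand. *Il1rapl1* and *Cntnap5c* share 22 G-rich bases, and *Cntnap5c* and *Hdac9* share 31 AT-rich bases.
*Il1rapl1*, GFP mock, chrX:87238294-87238466: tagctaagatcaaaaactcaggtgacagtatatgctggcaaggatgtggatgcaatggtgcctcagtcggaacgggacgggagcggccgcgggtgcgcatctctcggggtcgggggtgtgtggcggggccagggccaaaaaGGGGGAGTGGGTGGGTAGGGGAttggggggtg
*Cntnap5c*, GFP mock, chr17:57855954-57856072: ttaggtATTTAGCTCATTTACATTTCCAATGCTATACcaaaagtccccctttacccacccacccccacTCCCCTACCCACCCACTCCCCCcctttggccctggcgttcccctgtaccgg
*Hdac9*, GFP mock, chr12:34073704-34073811: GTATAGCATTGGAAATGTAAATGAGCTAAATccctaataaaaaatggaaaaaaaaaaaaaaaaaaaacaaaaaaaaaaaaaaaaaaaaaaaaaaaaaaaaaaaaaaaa
In list order, *Il1rapl1* had peak scores (10 times the −log10 of the q-value) of 1454, 1096, 1287 and 1075. *Cntnap5c* had 302, 337, 295 and 239 in that order, and *Hdac9* had 259, 227, 220 and 150. The G-rich stretch of the *Il1rapl1* and *Cntnap5c* peaks reached G4Hunter scores of 2.36 and 2.56, above the limit of 1.5 used for a predicted G4. The *Hdac9* peak is 13.9% G and C and ends in a run of 40 A. A peak of *Nkain2* (chr10:32816608-32816715), scored 244 in GFP mock, 205 in Cre mock and 168 in Cre DOX and absent from GFP DOX, was of the same make, with a run of 51 T. These 4 GFP mock peaks are 59.0% to 100% repeat-masked, so reads there can have come from other copies.

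Strong regions in unmasked sequence were fewer. The one with the highest score in GFP DOX and in Cre mock, in *Kalrn*, which encodes a guanine nucleotide exchange factor of small GTPases, is shown in full because it holds no predicted G4.
*Kalrn*, Cre mock, chr16:34071557-34071782: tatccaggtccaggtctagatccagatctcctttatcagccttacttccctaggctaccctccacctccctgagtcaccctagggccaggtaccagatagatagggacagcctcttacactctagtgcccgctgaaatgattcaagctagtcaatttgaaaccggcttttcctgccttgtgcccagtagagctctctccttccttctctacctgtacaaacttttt
It scored 136, 381, 388 and 71 in the 4 lists. The score was thus high in 1 list of each genotype and low in the other, in opposite order of doxycycline. The peak is 11.1% masked. Other regions among the strongest that all lists held lay in *Tenm2*, a teneurin gene, with 281, 168, 244 and 169 in list order, and in the *Fgfr2* model with 235, 186, 195 and 132. A region of *Lingo2* was lowest in GFP mock, at 64, and highest in Cre mock, at 298, with 137 in GFP DOX and 198 in Cre DOX. In *Mdga2*, an adhesion gene, the score of 225 in Cre DOX went with a fold enrichment of only 2.66 over a peak of 1025 bases, and the other lists scored 61, 52 and 54 there.

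Peaks over 50% repeat-masked made up most of the counted peaks. The example is from *Cpq*, a carboxypeptidase gene and the most peak-dense gene of the class. Capitals mark a 20-base word that was among the 5 commonest of the class, found after words close to short tandem repeats, or made of few kinds of base, were set aside.
*Cpq*, Cre mock, chr15:33444298-33444429: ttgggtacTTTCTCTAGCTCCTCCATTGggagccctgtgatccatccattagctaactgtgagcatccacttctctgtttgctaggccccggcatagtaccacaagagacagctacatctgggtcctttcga
The peak is fully masked and scored 33 in Cre mock and 18 in Cre DOX, with no peak in the GFP lists. The commonest word, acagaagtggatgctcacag, counted in either orientation, lay in 249 of 8761 separate 1 kb loci with a counted peak (2.84%) and in 0.367% of the 953731 tiles of 201 bases that make up the very long genes. The marked word lay in 211 loci, or 2.41%, against 0.383% of the tiles. In the peak windows of genes of 50 to 200 kb the commonest word was present in 1.43%, 0.536%, 0.647% and 1.68% in list order, against 3.74%, 2.06%, 1.65% and 3.59% in the very long genes. The words were chosen for being common in peak windows of very long genes. Higher shares there than in tiles or shorter genes can follow from that choice.

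Fewer peaks per Mb were called in very long genes than in genes of 50 to 200 kb in every list. In list order, 3445 of 87613, 2040 of 60219, 3160 of 91097 and 4256 of 105081 peaks were counted in very long genes. These were 17.97, 10.64, 16.48 and 22.20 peaks per Mb. Genes of 50 to 200 kb had 25.66, 17.62, 33.71 and 26.58 peaks per Mb in the same order. The long-to-mid ratio was therefore 0.70 (0.673 to 0.729), 0.604 (0.574 to 0.635), 0.489 (0.470 to 0.509) and 0.835 (0.805 to 0.866) in the 4 lists. Over all counted peaks the ratio was lowest in Cre mock and closest to 1 in Cre DOX, and the 4 intervals do not overlap. This order depended on the peaks taken, since at a −log10 q of at least 5, and among unmasked peaks, GFP DOX was lowest, at 0.563 and 0.227. For Cre DOX the direction changed too, with a ratio of 1.13 (0.999 to 1.27) among top-decile scores and 1.04 by covered bases. Very long genes held 3.93% (3.80 to 4.06), 3.39% (3.24 to 3.54), 3.47% (3.35 to 3.59) and 4.05% (3.93 to 4.17) of the lists.

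The shortfall lay in unmasked sequence. Peaks of which at most 50% is repeat-masked numbered 821, 427, 974 and 528 in the 4 lists, or 4.28, 2.23, 5.08 and 2.75 per Mb. Genes of 50 to 200 kb had 13.5, 9.80, 21.9 and 11.3 such peaks per Mb, which gives ratios of 0.318, 0.227, 0.232 and 0.244. Peaks over 50% masked numbered 2624, 1613, 2186 and 3728, and their ratios were 1.12 (1.07 to 1.18), 1.08 (1.01 to 1.14), 0.969 (0.919 to 1.02) and 1.27 (1.22 to 1.33). Per Mb of body, masked peaks were thus slightly denser in very long genes in the GFP lists and more so in Cre DOX. Per Mb of masked sequence the ratios were 1.09 (1.04 to 1.15), 1.05 (0.982 to 1.11), 0.941 (0.893 to 0.992) and 1.24 (1.19 to 1.29) in list order. By that measure the GFP DOX interval held 1. The bodies themselves differ little in masked share, 29.1% in very long genes and 28.3% in genes of 50 to 200 kb, and more in GC content, 40.1% and 43.0%. With the shorter genes weighted to the GC content of the very long ones in windows of 10 kb, the ratios were 0.877, 0.753, 0.643 and 0.862, so that GFP mock came closest to 1. The part of GC content in the remaining difference was not tested.

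**Figure D1:**
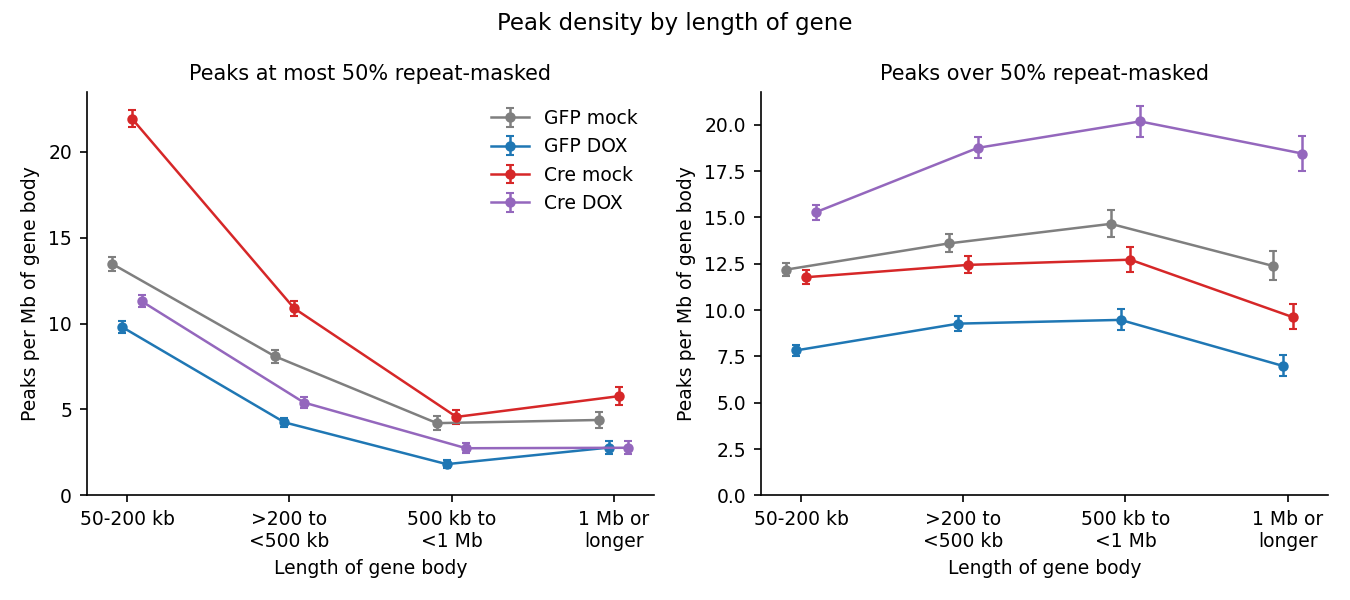
Peaks per Mb of gene body (y axis) in protein-coding genes of 4 length classes (x axis) and the 4 lists, for peaks at most 50% masked (left) and over 50% masked (right); points are densities and bars exact 95% intervals of the counts. Unmasked peaks are rarer in each class above 200 kb than in genes of 50 to 200 kb, where they reach 21.9 per Mb in Cre mock, while masked peaks range from 6.99 to 20.2 per Mb with no fall of that size.

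The plot of density by length class shows where the change lay. Unmasked peaks went from 13.5 per Mb at 50 to 200 kb to 8.10 at over 200 to under 500 kb and 4.20 at 500 kb to under 1 Mb in GFP mock. Genes of at least 1 Mb had 4.39 per Mb in GFP mock and 5.77 in Cre mock, but *Gm20388* alone held 132 of 821, 127 of 427, 245 of 974 and 93 of 528 unmasked peaks of very long genes in list order. This model of 51.1% GC spans many shorter genes. Without it the unmasked ratios to genes of 50 to 200 kb were 0.272, 0.163, 0.177 and 0.205, and without all 7 models that hold 3 or more other genes 0.263, 0.150, 0.168 and 0.194.

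The counted peaks as a whole were spread along the gene. Outside the 7 composite models, each of 10 equal parts of the body, from start to end, held 253 to 341, 158 to 213, 242 to 327 and 347 to 438 peaks in list order. The opening 50 kb had 17.4 peaks per Mb in GFP mock against 16.9 in the rest, and the ratio of the opening to the rest was between 0.951 and 1.04 over the lists, with 1 inside every interval. Unmasked peaks alone were denser in the opening 50 kb of Cre DOX, by 1.61 times (1.12 to 2.25), and by 1.11 to 1.51 times in the other lists with 1 inside the interval. They were also frequent toward the gene end, where the last of the 10 parts held 92 of 652, 40 of 274, 122 of 682 and 60 of 411 in list order. Peaks shared by the overlapping *Iqschfp* and *Schip1* models, whose ends nearly coincide, entered the counts by position once per model. *Schip1* held 6, 7, 12 and 11 unmasked peaks in list order. Only 21, 12, 33 and 12 counted peaks had their midpoint in an annotated exon, 0.610%, 0.588%, 1.04% and 0.282% of the peaks beside 1.12% of the bodies' bases. The counted peaks were therefore almost all intronic.

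At least 1 counted peak was found in 229, 215, 226 and 226 of the 230 genes in list order, and the median gene had 14.6, 7.25, 11.6 and 16.7 peaks per Mb. The spread between genes was wide. Averaged over the lists, density ran from 0.570 per Mb in *Pcdh9*, a protocadherin gene, to 101 in *Cpq*. *Cpq* (chr15:33083129-33594552) held 61, 44, 53 and 49 peaks in list order. Next came *Iqcm* with 64.4 per Mb, *Sntg1*, the gene of a syntrophin, with 60.5, *Gm15155* with 60.0 and *Stpg2* with 57.0. In each of these 5 genes at most 4 peaks in any list were unmasked, and their bodies are 45.5% to 53.7% masked. Of the 61 GFP mock peaks of *Cpq*, 36 overlapped a GFP DOX peak, 45 a Cre mock peak and 53 a Cre DOX peak, whereas 75.5%, 67.6% and 52.2% of all GFP mock peaks of the class were absent from these lists.

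The 5 genes with the lowest density were *Pcdh9*, *Sox6*, *Tenm4*, *Fat3* and *Robo1*. *Sox6* encodes a transcription factor, *Tenm4* a teneurin, *Fat3* a large atypical cadherin and *Robo1* the receptor of Slit guidance cues. Each had at most 2 peaks in any list, and GFP DOX held no peak in *Pcdh9*, *Sox6*, *Tenm4* and *Fat3*. Their bodies are 17.98% to 26.8% masked. Across the 230 genes, density and masked share had a Spearman correlation of 0.65, and the density of unmasked peaks had one of 0.68 with GC content. These describe genes measured in the same 4 libraries, and genes are not replicates. The 12 X-linked genes, of which the median is 35.4% masked against 26.8% on autosomes, had medians of 22.2, 14.5, 18.7 and 38.0 peaks per Mb in list order, and the 218 autosomal ones 14.3, 6.92, 11.1 and 15.6.

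**Figure D2:**
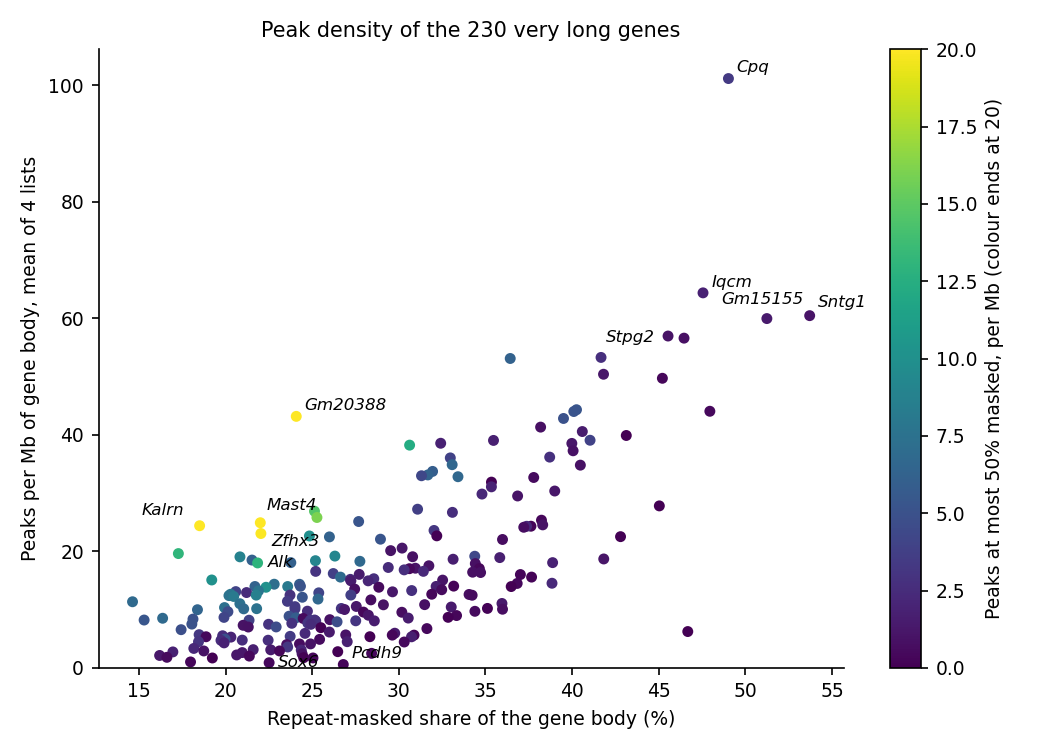
Each point is 1 of the 230 very long genes, with the repeat-masked share of its body in percent (x axis) and its peaks per Mb as the mean of the 4 lists (y axis); colour gives the density of peaks at most 50% masked, on a scale that ends at 20 per Mb. Density is higher in genes richer in masked sequence, from *Pcdh9* at 0.570 to *Cpq* at 101 per Mb, while *Gm20388*, *Kalrn*, *Mast4* and *Zfhx3* have the highest densities of unmasked peaks, 33.7, 21.1, 20.8 and 19.9 per Mb.

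Unmasked peaks were densest in a few genes. After *Gm20388* with 33.7 unmasked peaks per Mb came *Kalrn* with 21.1, *Mast4*, which encodes a microtubule-associated kinase, with 20.8 and *Zfhx3*, a zinc-finger homeobox gene, with 19.9, ranked after their values were seen. *Zfhx3* (chr8:107942644-108961630) had 21 unmasked peaks of 25, 15 of 17, 29 of 31 and 16 of 21 in the 4 lists. *Kalrn* (chr16:33969073-34573532) had 8 of 11, 10 of 11, 27 of 28 and 6 of 9 in the same order, and *Mast4* 6 of 12, 11 of 12, 21 of 23 and 12 of 13. The numbers were highest in Cre mock for all 3 genes. Few of the 28 *Kalrn* peaks of Cre mock were at the same place in these lists, since 3 coincided with a GFP mock peak and 4 with a Cre DOX peak. This was near the general case, as 81.0% and 86.7% of all unmasked Cre mock peaks of very long genes were absent from GFP mock and Cre DOX. More coincided from the shorter lists. Of 9 *Kalrn* peaks of Cre DOX, 4 overlapped a Cre mock peak, and of 11 of GFP DOX, 5 overlapped a Cre DOX peak. Of the 23 *Mast4* peaks of Cre mock, 1 overlapped a GFP mock peak and 7 a GFP DOX peak, while 83.4% of unmasked Cre mock peaks of the class were absent from GFP DOX, and 69.4% of all.

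The sequence at the peak centres differed between these kinds. A window of 201 bases around each midpoint was compared with tiles of that size across the bodies. A predicted G4 was held by 19.4% (16.7 to 22.2), 15.9% (12.6 to 19.7), 16.4% (14.1 to 18.9) and 17.0% (13.9 to 20.5) of the windows of unmasked peaks in list order. In unmasked tiles it was 6.65%, below each interval. These windows had a median GC content of 47.3%, 47.8%, 47.8% and 45.3% in list order, against 39.8% in the tiles. The part of GC content in the G4 shares was not tested. Peaks were classed by masking of the whole peak, and tiles by masking of the tile. Masked peaks were on the other side of their tiles, with 12.7%, 5.27%, 9.74% and 5.58% against 15.1%. Windows of unmasked peaks in genes of 50 to 200 kb held a G4 in 22.2%, 21.2% (19.8 to 22.6), 18.98% and 17.0% in list order, and in GFP DOX the interval lay above that of the very long genes. Where only 1 strand of a window held a G4, the G-rich strand was the coding strand of the gene in 48.9% (44.3 to 53.4) of 479 windows, 45.0% of 149, 46.6% of 363 and 47.4% of 293 in the 4 lists, and in 46.2% of tiles. DRIP peaks have no strand, so this concerns the sequence alone.

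Copies were common among masked peaks. A copy was counted when the window aligned, at 80% identity or more over at least 100 bases, to the window of another counted peak in a very long gene on another chromosome or over 100 kb away, and copies within the same 1 kb were counted as 1. This held for 64.6%, 72.1%, 60.5% and 80.1% of windows in list order, against 11.4% of 9534 tiles. Among masked peaks the shares were 84.3%, 91.0%, 87.0% and 90.9%, against 54.0% of masked tiles and 68.7% to 78.1% of masked peaks in genes of 50 to 200 kb. The search held only peaks of very long genes. Tiles and shorter genes were thus matched to a class not their own, so their lower shares do not show less repetition. Among unmasked peaks at most 3.22% had a copy. Those masked windows that had a copy had a median of 75 to 86 of them. Reads of a repeated stretch can be placed at other copies where these are nearly identical, and 80% identity does not show that. The lists do not tell how surely reads were placed, so a peak of this kind may not belong to that gene alone. The part of read placement in these counts was not tested. Runs of CA or TG of at least 20 bases were in 0.949% to 2.55% of windows and in 2.16% of tiles, and runs of at least 15 A or T in 0.822% to 1.04% and in 1.00%.

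**Figure D3:**
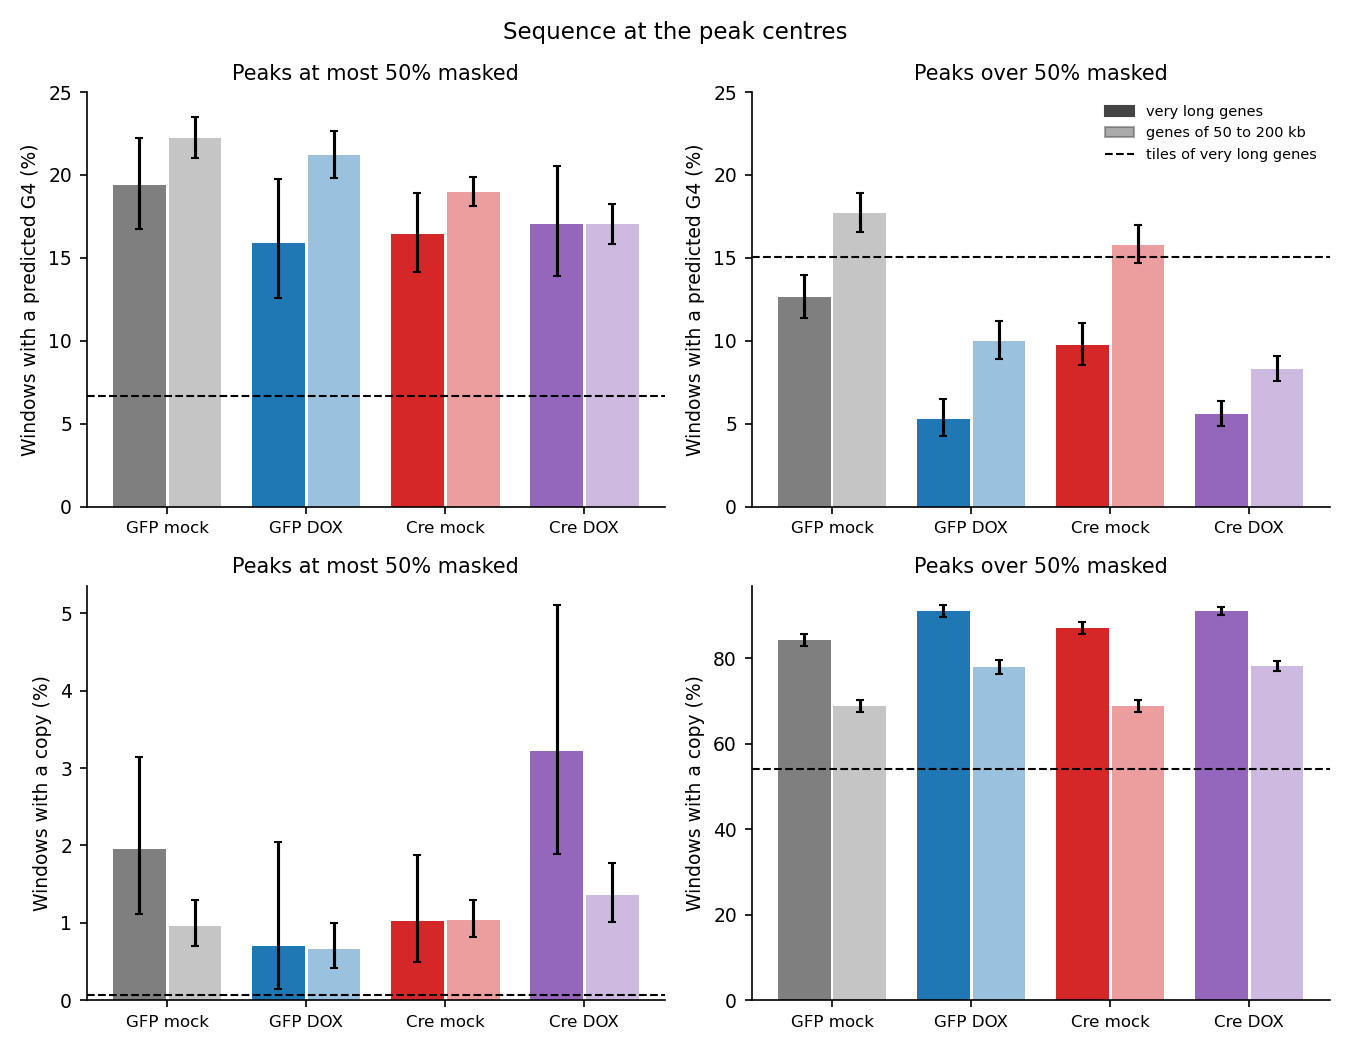
Percent of 201-base windows at peak centres that hold a predicted G4 (upper row, y axis) or have a copy at another counted peak (lower row, y axis), by list (x axis), for peaks at most 50% masked (left) and over 50% masked (right); dark bars are very long genes, pale bars genes of 50 to 200 kb, error bars exact 95% intervals and the dashed line tiles of the very long genes. Unmasked peaks stand above the G4 line of 6.65% in every list and masked peaks of very long genes below theirs of 15.1%. Copies were sought only among counted peaks of very long genes. They are found mainly among masked peaks, in 84.3% to 91.0% of those of very long genes. The y axes of the lower row differ.

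Between Cre DOX and Cre mock, masked and unmasked peaks differed in opposite directions, whereas both kinds were fewer in GFP DOX than in GFP mock. GFP DOX had 0.592 (0.560 to 0.626) times as many counted peaks as GFP mock, whereas its whole list was 0.687 times as long. Cre DOX had 1.35 (1.29 to 1.41) times as many as Cre mock, and its whole list was 1.15 times as long. The gain in Cre DOX was in masked peaks, with 3728 against 2186, a ratio of 1.71 (1.62 to 1.80), while unmasked peaks went the other way, with 528 against 974, a ratio of 0.542 (0.487 to 0.603), or 0.597 without *Gm20388*. In the whole lists these ratios were 1.60 and 0.623. Unmasked peaks of GFP DOX over GFP mock stood at 0.5201 (0.462 to 0.585) in very long genes, below the 0.728 (0.696 to 0.761) of genes of 50 to 200 kb and the 0.699 of the whole list. Without *Gm20388* this ratio was 0.435 (0.379 to 0.499), and without all 7 composite models 0.413.

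Cre mock had 0.917 (0.874 to 0.963) times as many counted peaks as GFP mock, although its list was 1.04 times as long and genes of 50 to 200 kb had 1.31 times as many. Its unmasked peaks numbered 1.19 (1.08 to 1.30) times those of GFP mock in very long genes and 1.63 (1.57 to 1.69) times in genes of 50 to 200 kb. Without *Gm20388* the first of these was 1.06 (0.952 to 1.18) and its interval held 1. Cre DOX over GFP DOX was 2.09 (1.98 to 2.20) for all counted peaks, 2.31 for masked and 1.24 (1.09 to 1.41) for unmasked ones. The unmasked ratio became 1.45 (1.25 to 1.69) without *Gm20388* and 1.498 without all 7 models. For all, masked and unmasked peaks the whole lists had ratios of 1.74, 2.08 and 1.17. Genes of 50 to 200 kb had 1.51, 1.95 and 1.15.

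Per gene, the share of the list was compared wherever 2 lists together held at least 20 peaks, and a 2-fold difference was counted. Genes named at either end of a ratio were chosen by it, so their intervals are no separate support for a difference. Over all protein-coding genes that entered, Cre DOX was higher than Cre mock in 14.4% and lower in 18.1%. Of the very long genes, 134 entered, 30 (22.4%) were higher in Cre DOX and 7 lower. With equal numbers of the strongest peaks of both lists, 87 entered, 14 were higher and 4 lower, beside 23 and 15 of 167 over all genes. The metabotropic glutamate receptor gene *Grm7* (chr6:110645581-111567230) had 11, 5, 4 and 20 peaks in the 4 lists, a share ratio of 4.33 (1.45 to 17.4) over Cre mock. *Cntnap5a* (chr1:115684756-116587323) had 4, 4, 7 and 30 peaks, a ratio of 3.72 (1.60 to 10.0). Both had most peaks in Cre DOX, by a wider margin in *Cntnap5a*, since *Grm7* also had 11 in GFP mock. *Lrrtm4*, a synaptic leucine-rich repeat gene, had 18 against 5, *Dach2*, a dachshund family gene, 39 against 12 and *Dgkb*, a diacylglycerol kinase gene, 28 against 9. In these 5 genes at most 3 peaks of Cre DOX were unmasked.

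At the other end lay the genes rich in unmasked peaks. *Sox5* (chr6:143828425-144781977), which encodes a transcription factor, had 14, 4, 19 and 5 peaks in the 4 lists, and its share in Cre DOX was 0.228 (0.0666 to 0.632) of that in Cre mock. It was lower in both doxycycline lists than in both mock lists. *Kalrn* followed with 9 against 28, a ratio of 0.279 (0.116 to 0.607), then the acid-sensing channel gene *Asic2* with 9 against 22, the receptor tyrosine kinase gene *Alk* with 9 against 21 and *Gm20388* with 135 against 292. None of the 19 *Sox5* peaks and none of the 22 *Asic2* peaks of Cre mock overlapped a Cre DOX peak. Of these 13 and 12 were unmasked, and among all Cre mock peaks of very long genes 86.7% of unmasked and 29.3% of masked ones overlapped none. All 7 genes past 2-fold lower were among the 77 with the lowest masked share, of which 19 entered, and the 30 past 2-fold higher were 8 of 42 in the middle group and 22 of 73 among the 77 with the highest masked share.

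In GFP cells, 104 very long genes entered, of which none was 2-fold higher in GFP DOX and 10 were lower, beside 5.36% higher and 6.9% lower over all genes that entered. By numbers not scaled to list length 35 were lower, beside 58 of 261 over all genes. *Asic2* (chr11:80880169-81968457) had 2 peaks in GFP DOX and 21 in GFP mock, a share ratio of 0.139 (0.0158 to 0.567). *Alk* had 4 and 19, and *Sgcd*, the gene of delta-sarcoglycan, and *St6galnac3*, a sialyltransferase gene, each had 4 and 17. *Anks1b*, a postsynaptic scaffold gene, had 6 and 22. At the upper end *Cntnap5c* had 21 and 18 peaks, a ratio of 1.70 (0.861 to 3.38), and *Schip1* 12 and 11, while *Kalrn*, *Mast4* and *Vps13b* had equal numbers in both lists.

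Cre mock was 2-fold higher than GFP mock in 10.6% and lower in 2.33% of all genes that entered, but in 1 and 5 of 122 very long genes. This contrast depended on the peaks taken, since with equal numbers of the strongest peaks it was 6 and 10 of 168 over all genes and 1 and 6 of 83 very long genes. The higher one was *Kalrn*, with 28 against 11 peaks and a ratio of 2.45 (1.18 to 5.45). *Mast4* followed with 23 against 12, a ratio of 1.84 (0.880 to 4.07), then *Gm37240* with 46 against 27, *Pkhd1*, the gene of fibrocystin, with 25 against 15 and *Dock2*, a Rac exchange factor gene, with 13 against 8. The lower ones were *Tenm1*, a teneurin gene, with 8 against 20, a ratio of 0.385 (0.147 to 0.912), *Camta1*, a calmodulin-binding transcription activator gene, with 10 against 20, *Dach2* with 12 against 24, *Thsd4*, a thrombospondin-repeat gene, with 7 against 14, and *Egfem1* with 15 against 29.

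Cre DOX over GFP DOX was 2-fold higher in 8.62% and lower in 11% of all genes that entered, and in 17 and 1 of 113 very long genes. By numbers not scaled to list length 69 were higher and none lower, beside 123 and 3 of 290 over all genes. *Cntnap5a* led with 30 against 4, a ratio of 4.30 (1.51 to 16.8), followed by *Sgcd* with 24 against 4, *Ptprd* with 27 against 5, and *Lingo2*, a leucine-rich repeat gene, and *Agbl4*, a carboxypeptidase gene, both with 24 against 5. *Kalrn* was the lower one, with 9 against 11, a ratio of 0.469 (0.172 to 1.24). *Gm20388* with 135 against 147, *Ralyl* with 28 against 28, *Gm37240* with 27 against 26 and *L3mbtl4* with 18 against 17 came next, at ratios of 0.526 to 0.607. Each list enters 2 of these 4 comparisons, so values of a gene in different comparisons are not independent.

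**Figure D4:**
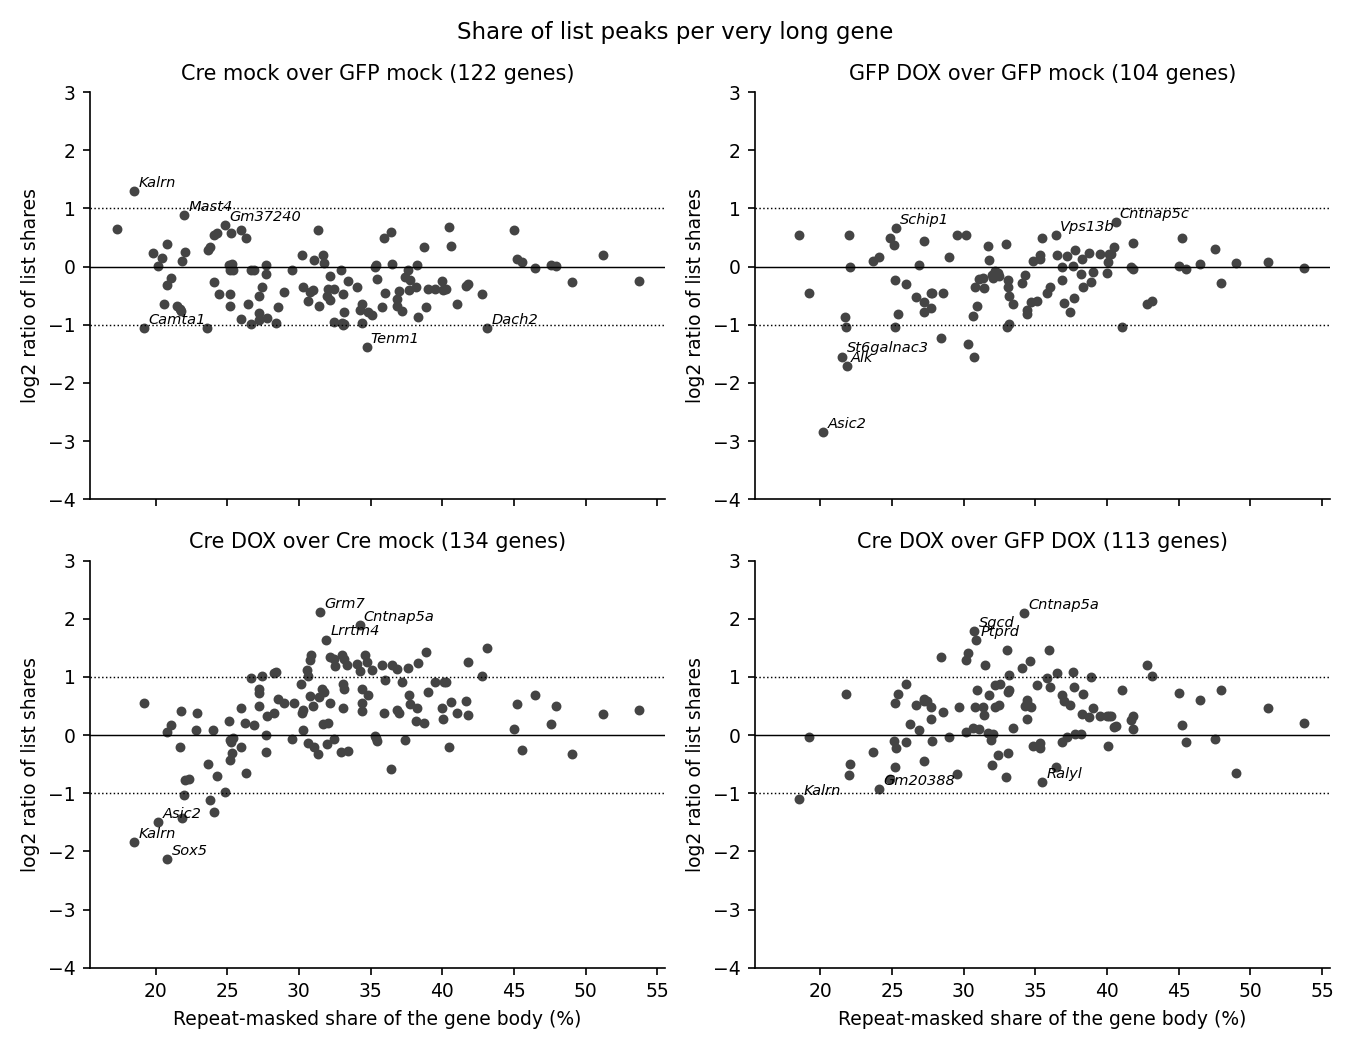
Log2 ratio of list shares (y axis) against the repeat-masked share of the gene body in percent (x axis) for very long genes with at least 20 peaks in the 2 lists of each panel; the solid line is equality and dotted lines are 2-fold. In Cre DOX over Cre mock the 7 genes past 2-fold lower, *Sox5*, *Kalrn* and *Asic2* among them, lie at the low end of masked share, and the genes past 2-fold higher, led by *Grm7* at a ratio of 4.33, lie above it.

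Of 24 genes known at common fragile sites of human or mouse, 23 belong to the class, and *Thsd7a* falls short. Their density, as a mean of the lists, had a median of 12.9 per Mb, beside 13.0 over all 230 genes. It was lowest in *Dab1*, which encodes an adaptor of reelin signalling, at 3.33. By list the median was 14.3, 7.01, 11.0 and 24.2 per Mb, beside 14.6, 7.25, 11.6 and 16.7 for the class. Cre DOX had the highest density of the 4 lists in 18 of the 23 genes, and in 129 of all 230. GFP DOX had the lowest in 19 of the 23 and in 156 of the 230. These are also the longest and the shortest list. By share of the list, Cre DOX was above GFP DOX in 19 of the 23 and 158 of the 230, and GFP DOX below GFP mock in 17 and 161.

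*Fhit*, which encodes a diadenosine triphosphate hydrolase and holds the best-known fragile site, spans chr14:9550092-11162035. It had 23, 17, 25 and 48 peaks in list order, a share ratio of Cre DOX over Cre mock of 1.66 (1.01 to 2.82). *Dmd*, the dystrophin gene (chrX:82948870-85206141), had 50, 27, 38 and 84 peaks in that order, with a ratio of 1.92 (1.29 to 2.89). Both genes were highest in Cre DOX, and no more than 3 of their peaks in any list were unmasked. *Wwox*, an oxidoreductase gene (chr8:114439655-115352708), differed from them with 11, 3, 10 and 13 peaks, of which 6, 2, 7 and 10 were unmasked.

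Past 2-fold in Cre DOX over Cre mock were 6 of the 18 fragile-site genes that entered, all higher, beside 30 of 134 in the class and 14.4% of all genes that entered. The median masked share was 31.7% in the fragile-site genes and 27.3% in the class, and its part in these counts was not tested. Among the 6 genes were *Ctnna3*, which encodes an alpha-catenin, with 41 against 14 peaks, *Cntnap2*, which encodes a contactin-associated protein, with 57 against 20, *Il1rapl1* with 57 against 21, *Lrp1b*, an endocytic receptor gene, with 35 against 14 and *Ccser1* with 32 against 13. Their ratios were 2.54, 2.47, 2.35, 2.17 and 2.13, and each interval lay above 1. The genes are named here for passing 2-fold, so these intervals are no separate support. *Dpyd*, which encodes the enzyme that starts pyrimidine breakdown, had 38 against 18, a ratio of 1.83 (1.02 to 3.41), and *Naaladl2*, of the glutamate carboxypeptidase family, 62 against 37, a ratio of 1.45 (0.952 to 2.25). Share ratios lay between 0.867 and 1.39, with 1 inside each interval, for the scaffold gene *Magi2* with 47 against 47, *Macrod2*, which encodes a macrodomain hydrolase, with 26 against 20, *Nbea*, the neurobeachin gene, with 25 against 19, *Lsamp*, which encodes a neuronal adhesion protein, with 16 against 10 and the scaffold gene *Dlg2* with 11 against 9. In Cre mock over GFP mock and in GFP DOX over GFP mock none of the 19 and 16 that entered passed 2-fold, beside 6 of 122 and 10 of 104 in the class. Over all genes the shares were 10.6% higher and 2.33% lower in the first and 5.36% and 6.9% in the second. In Cre DOX over GFP DOX 2 of 16 were higher, beside 17 of 113 in the class and 8.62% of all genes.

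Too few peaks for the comparison of Cre DOX with Cre mock were found in *Dab1* (3, 2, 4 and 6 peaks in list order), *Exoc4*, an exocyst gene (3, 4, 6 and 7), *Immp2l*, a mitochondrial peptidase gene (6, 4, 6 and 6), *Auts2*, a neurodevelopmental gene (15, 4, 13 and 6), and *Rora*, a nuclear receptor gene (13, 5, 15 and 3). *Auts2* and *Rora* went against the rest of the list, with fewer peaks in Cre DOX than in Cre mock, and in both most Cre mock peaks were unmasked, 10 of 13 and 12 of 15.

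**Figure D5:**
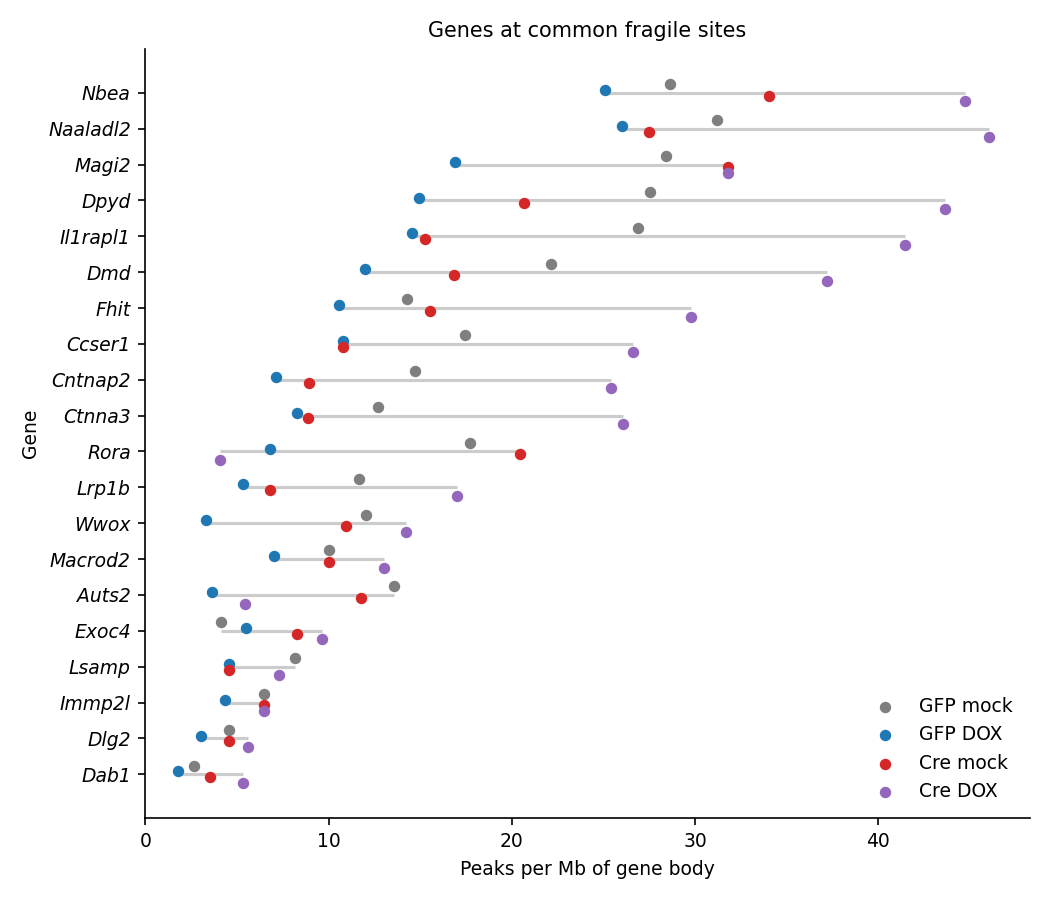
Peaks per Mb of gene body (x axis) for 20 of the fragile-site genes of at least 500 kb (y axis, ordered by their mean), with a point for each of the 4 lists, shifted vertically so that equal values can be seen, and a grey line from lowest to highest. Cre DOX lies furthest right in 15 of them and GFP DOX furthest left in 16, and *Rora* and *Auts2* have their lowest or near-lowest density in Cre DOX.

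Other families of the class were described in the same way, by genes listed with earlier results known. The 37 synaptic adhesion and guidance genes had a median of 9.03 peaks per Mb. Of 21 that entered for Cre DOX over Cre mock, 10 were 2-fold higher and none lower, beside 30 and 7 of 134 in the class and 14.4% and 18.1% of all genes that entered, and the median ratio was 1.84 beside 1.36 for the class. Of 10 glutamate and GABA receptor and ion channel genes that entered, 5 were higher and none lower, with a median ratio of 2.01. The 9 cadherin and catenin genes had a median of 13.98 per Mb, with 1 of 6 higher. Of 10 scaffold genes none passed 2-fold. The 12 transcription factor and RNA-binding protein genes in the class had a median of 21.5% masked sequence and 3.48 unmasked peaks per Mb, beside 27.3% and 1.86 for the class, but only 3 of them entered, of which 1, *Sox5*, was lower. Of 2 extracellular matrix genes that entered, 1 was higher.

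Most regions were found in 1 list. Merged over the lists, the counted peaks formed 7583 regions, of which 5141 (67.8%) were in 1 list and 578 (7.62%) in all 4. Regions of Cre DOX alone were the most numerous, 2106, of which 355 were unmasked. Cre mock alone had 1145 regions, of which 671, or 58.6%, were unmasked, the highest share among the lists taken alone. Of the 578 regions in all 4 lists only 42 were unmasked, and their median GC content was 38.1%. Masked regions thus recurred more than unmasked ones. Of the GFP mock peaks 75.5% (74.0 to 76.9) were absent from GFP DOX, and 58.8% of the GFP DOX peaks were absent from GFP mock. Over the whole lists these shares were 69.4% and 57.0%. Of the Cre mock peaks 47.0% (45.2 to 48.7) were absent from Cre DOX, beside 51.3% of the whole list, and 67.8% of the Cre DOX peaks were absent from Cre mock, beside 63.6%. The contrast between genotypes was not seen in the top decile of scores, where 80.2% of GFP mock peaks were absent from GFP DOX and 80.4% of Cre mock peaks from Cre DOX. Between the mock lists, 67.6% of GFP mock and 65.8% of Cre mock peaks were absent from the other, beside 61.5% and 64.8% of the whole lists. A peak was absent where no peak of the other list overlapped it by 1 base, and lists of different length and peak width limit such a count. The narrowest counted peak was 106, 107, 132 and 213 bases wide in list order, and the median width was 276, 325, 314 and 514 bases.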

How the data were processed

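The 4 DRIP-seq peak lists were used, and the input samples were not analysed here. According to the methods, the authors trimmed and aligned single-end reads to mm10 with the nf-core/chipseq pipeline and called peaks with MACS2 in each library, and whether input served as control is not given in the sources used here. Scores were deposited as the −log10 q-value multiplied by 10 and cut to a whole number, and the deposited fold enrichment is a ratio to the local background. The −log10 p-values and −log10 q-values were deposited in columns of their own. No read depth is given, so the length of a list stands for it, and a longer list can come from deeper sequencing. The command names narrow peaks whereas the format is that of broad peaks.

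Peaks were assigned by midpoint to GENCODE M21 protein-coding bodies outside 1 kb of any transcript start. Repeat-masked bases and sequences came from the RefSeq copy of GRCm38.p6, the same build as mm10. Densities have exact Poisson intervals, shares exact Clopper-Pearson intervals, and ratios intervals from the conditional binomial, all at 95%. G4s were predicted with G4Hunter in windows of 25 bases, and copies were found with blastn 2.17.0 at an E-value of 1e-10. Python 3.11.15, pandas 2.3.3, numpy 2.4.6, scipy 1.17.1 and matplotlib 3.10.9 were used, and the counting and interval code was tested on simulated data. Named genes were the 5 densest and 5 sparsest, the 5 at either end of each list ratio among genes with at least 20 peaks, the fragile-site genes, the 3 longest and those of the 10 strongest peaks of each list. Others were named after their values were seen. Some genes and a region that this rule names are not reported here. The members and lists were chosen with earlier results of these data known. Alternatives varied the peaks used, the length and distance limits, the comparison genes, the overlap, the scaling and the G4 definition.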

Additional observations from a re-analysis of the deposited data

Results flagged for a closer look

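Doxycycline went with opposite changes of the total and of masked peaks in the 2 genotypes. In very long genes the number of peaks in GFP DOX was 0.592 times that in GFP mock, and in Cre DOX it was 1.35 times that in Cre mock. For peaks over 50% masked the values were 0.615 and 1.71. Unmasked peaks were fewer with doxycycline in both genotypes, by ratios of 0.5201 and 0.542. The long-to-mid density ratio of GFP DOX was 0.862 times that of GFP mock, and that of Cre DOX was 1.71 times that of Cre mock. With 1 library per condition the difference between genotypes was not tested, and the whole lists moved in the same directions, by 0.687 and 1.15 times.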

How the results depend on the processing

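Of 110 recomputed values, 27 stayed within the interval of the value or, for counts of genes, within 1.5 times the count, 80 moved further, and 3 changed direction. The GFP DOX values for equal numbers of the strongest peaks are among the 27 by construction, as this list is the shortest. All 3 were the long-to-mid ratio of Cre DOX, which was 1.13 among top-decile scores, 1.04 at a −log10 q of at least 2 and 1.04 by covered bases. In list order, that ratio was 0.794, 0.708, 0.605 and 1.13 for the top decile, 0.769, 0.690, 0.539 and 1.04 at a −log10 q of at least 2, 0.716, 0.563, 0.657 and 1.000 at 5, 0.716, 0.604, 0.537 and 0.997 for equal numbers of the strongest peaks and 0.318, 0.227, 0.232 and 0.244 for unmasked peaks. It was 0.643, 0.551, 0.459 and 0.792 at any distance from starts, 0.723, 0.630, 0.509 and 0.852 beyond 5 kb, 0.633, 0.540, 0.451 and 0.779 by 1 base of overlap and 0.746, 0.622, 0.505 and 1.04 by covered bases. With bodies of at least 300 kb it was 0.752, 0.662, 0.547 and 0.873, with at least 1 Mb 0.654, 0.554, 0.457 and 0.798, against bodies of 100 to 300 kb 0.776, 0.715, 0.591 and 0.934, and against genes weighted by GC content 0.877, 0.753, 0.643 and 0.862. Chosen after seeing the data were 2 settings, without models that hold 3 or more other genes, 0.673, 0.564, 0.448 and 0.824, and without *Gm20388*, 0.675, 0.572, 0.453 and 0.825. The share of the list in percent was 4.18, 3.44, 3.54 and 3.86 for the top decile, 4.28, 3.10, 3.87 and 3.41 at a −log10 q of at least 5 and 2.58, 1.92, 2.33 and 2.02 for unmasked peaks.

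At 1.5-fold, 44 genes differed between Cre mock and GFP mock, 27 between GFP DOX and GFP mock, 63 between Cre DOX and Cre mock and 49 between Cre DOX and GFP DOX, in place of 6, 10, 37 and 18. Over all genes at 1.5-fold, 69 were higher and 63 lower of 387, 49 and 44 of 261, 108 and 123 of 436 and 71 and 59 of 290 in the same order. By numbers not scaled to list length, 35 differed between GFP DOX and GFP mock and 69 between Cre DOX and GFP DOX. Among equal numbers of the strongest peaks, 18 differed between Cre DOX and Cre mock. Where 50% of the peak had to be overlapped, 84.5% of GFP mock peaks were absent from GFP DOX and 77.5% from Cre mock, 40.7% of GFP DOX peaks from Cre DOX, and 78.4% and 53.9% of Cre mock peaks from GFP mock and Cre DOX. In the top decile of both lists these were 80.2%, 71.3%, 67.7%, 68.2% and 80.4%. A predicted G4 was held by 6.56, 3.53, 5.54 and 3.78 percent of windows at a G4Hunter score of 2 and by 6.42, 2.65, 5.22 and 3.17 percent by a pattern of G runs. The causes of these shifts were not tested.

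No paired analysis was possible because each condition has 1 library. Differences in depth between libraries cannot be told apart from the conditions, the shortest peak reported differs between lists, and a count of peaks does not measure the amount of hybrid.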
